A study of Mus musculus with 3 samples.

Results

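The enzymes of glycolysis, the pentose phosphate pathway and the tricarboxylic acid (TCA) cycle were followed in macrophages sorted from mouse kidneys. Members were the rows whose gene symbol was on a list of 46 enzyme genes. Of these, 45 were in the deposited table of 14811 genes, and Aldoc was not listed. They comprised 16 genes of glycolysis with lactate dehydrogenase, 7 of the pentose phosphate pathway and 22 of pyruvate oxidation, the TCA cycle and its citrate and malate side reactions. The samples were RNA-seq libraries of 3 C57BL6/J mice, 1 library per mouse, all in a single group. Each mouse had received PBS, a salt solution, by the intravenous route 1 h before its kidneys were removed, digested with DNase, collagenase D and dispase for 30 min at room temperature, and sorted for macrophages by flow cytometry. The labels give neither the age of the mice nor the surface markers used in the sort. With 1 group there was no comparison between conditions, so levels, ratios between enzymes within a library and differences between mice are described.

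Glycolysis splits glucose into pyruvate in the cytosol and yields ATP and NADH, and lactate dehydrogenase turns pyruvate into lactate and regenerates NAD+. The pentose phosphate pathway branches from glucose 6-phosphate and makes ribose phosphate and NADPH, which phagocytes use for the oxidative burst and for glutathione reduction. Mitochondria oxidise pyruvate through the pyruvate dehydrogenase complex and the TCA cycle. Macrophages are known to shift between these routes when they are activated, and the kidney's proximal tubule cells are known for abundant mitochondria and for making glucose.

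The libraries held 50646558 to 56718534 reads over the listed genes. Values are normalised read counts after removal of the 1 that every deposited value contains, and 1 read was worth 0.555 to 0.806 of them. Levels of different genes are compared per kilobase (kb) of exon. The length is that of all annotated exons of a gene, so a gene with long rare isoforms is understated. Shares of reads, summed levels and cutoffs in normalised reads are not divided by length unless stated. All 13 macrophage markers were listed, 12 of them at 10 or more in every mouse, and together they took 2.03%, 1.91% and 2.16% of the reads in mice 1, 2 and 3. Their summed level was 835713, 601664 and 771450, lowest in mouse 2, and C1qb alone had 323071, 256120 and 342089. Proximal tubule markers were present as well. All 12 were listed and none was at 0 in every mouse, and their summed level was 50169 in mouse 1, 224478 in mouse 2 and 18588 in mouse 3. Most of this was Kap, with 35490, 172061 and 13511. Mouse 2 thus stood apart in tubule RNA, and where leaving this mouse out changed a call, that is stated beside the result. The 6 endothelial markers summed to 530, 133 and 1385 in mice 1, 2 and 3. Most of this was Kdr, with 453, 7.77 and 1345, and Emcn, with 71.8, 99.3 and 38.1, while Tek was at 0 in every mouse and Pecam1 at 4.84 or less. Of T cell, neutrophil and red cell markers, the 4 that were listed reached at most 1.11 in any mouse. Other lists were not as low. Thick limb and distal tubule markers summed to 252, 6639 and 1141 in mice 1, 2 and 3. Dendritic cell markers summed to 539, 2.77 and 423, mostly Xcr1, and podocyte markers to 35.5, 258 and 415.

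Together the 45 enzymes took 0.279% ± 0.0543 of the reads (SD, n = 3 mice). TCA cycle genes took 0.182%, 0.259% and 0.151% of the reads in mice 1, 2 and 3. Glycolysis genes took 0.0666%, 0.0658% and 0.0588%, and pentose phosphate genes 0.0204%, 0.0123% and 0.0204%. Per kb of exon, the TCA cycle sum was 2.51, 3.51 and 2.39 times the glycolysis sum. It covers 22 genes against 16 and includes cytosolic side enzymes, Mdh1 among them. A few genes made up most of these sums per kb: Mdh1, Idh3b and Idh3g held 66.2% ± 5.22 of the TCA cycle sum, and Aldoa, Tpi1, Ldha and Ldhb 83.9% ± 1.04 of the glycolysis sum (SD, n = 3 mice). A level in sorted cells pools all of them, so more cells with a transcript and more transcript per cell cannot be told apart.

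**Figure D1:**
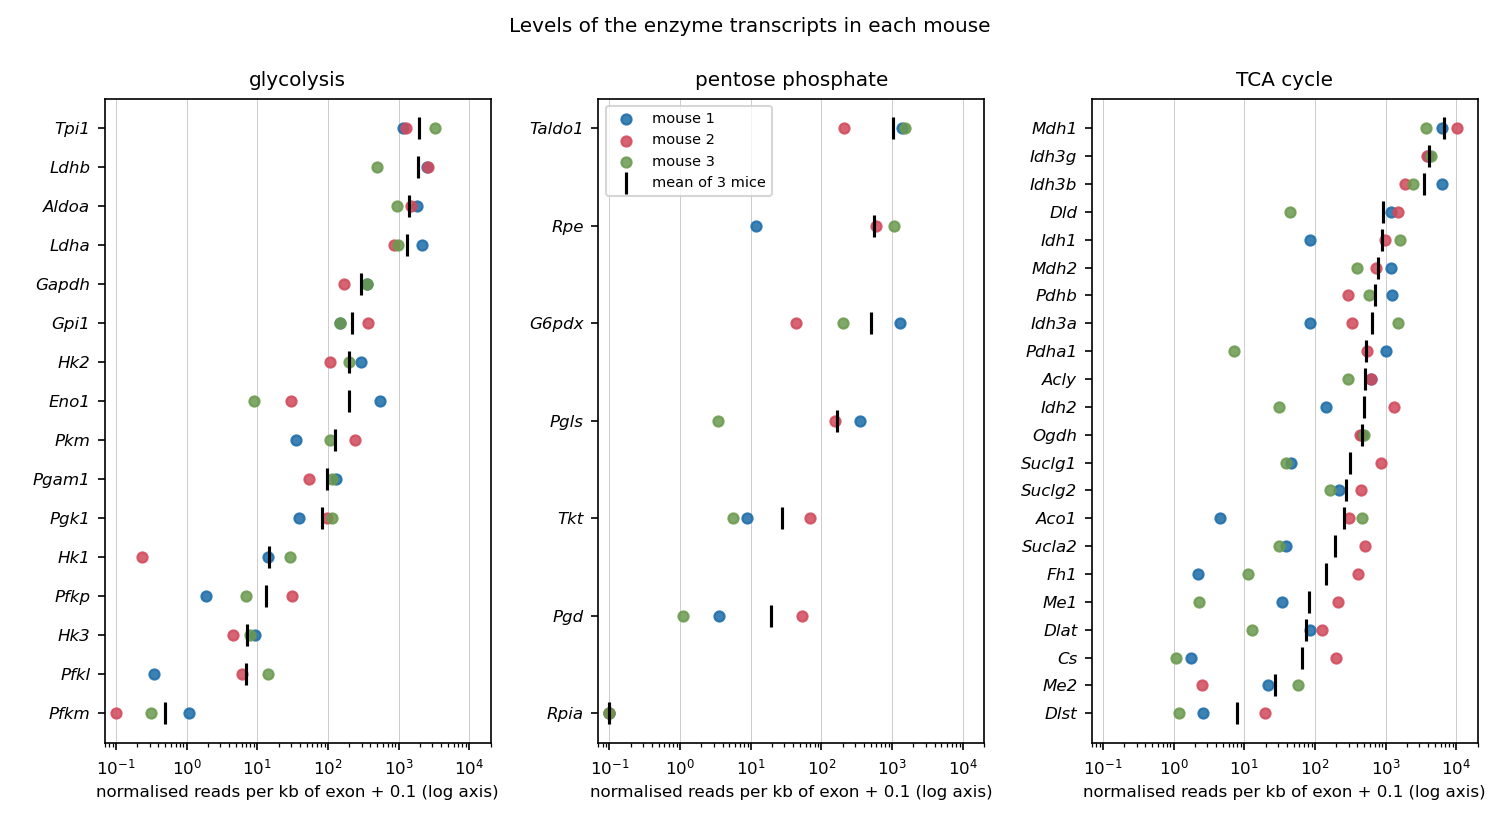
Level of each listed enzyme transcript in each mouse, in normalised reads per kb of exon plus 0.1 on a log axis, with the mean of 3 mice as a black bar. Mdh1, Idh3g and Idh3b have the highest means, Rpia is at 0 in every mouse, and genes such as Cs, Fh1, Hk1 and Pdha1 spread over more than 100-fold between mice.

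Each gene was also set against the median gene of its own library. A mean normalised count of 10 or more was required, which 43 of the 45 members met. Pfkm and Rpia did not. With limma's moderated test and Benjamini-Hochberg adjustment over 11603 genes, 14 of the 43 were called above the library median, against 22.7% of all genes tested. None of the 43 was called below it, against 4.32% of all genes. In this fit none was below at an unadjusted p under 0.05 either, though some members had negative differences. By role, 9 of 22 TCA cycle genes, 4 of 15 glycolysis genes and 1 of 6 pentose phosphate genes were called above. The median difference from the library median was 1.16 log2 units over the 43 members. In this test the spread of a gene was set by the trend of spread with level over all genes and not by its own 3 values. Without that trend limma called 0 of the 14 and 0 of all genes. At an unadjusted p under 0.05, 12 members then lay above the median and 5 below it. The order of levels was only partly shared between mice, with a Spearman rho across the 43 members of 0.612 between mice 1 and 2, 0.663 between mice 1 and 3 and 0.613 between mice 2 and 3 (a description across genes, which share libraries). Over all genes tested these were 0.560, 0.575 and 0.560.

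**Figure D2:**
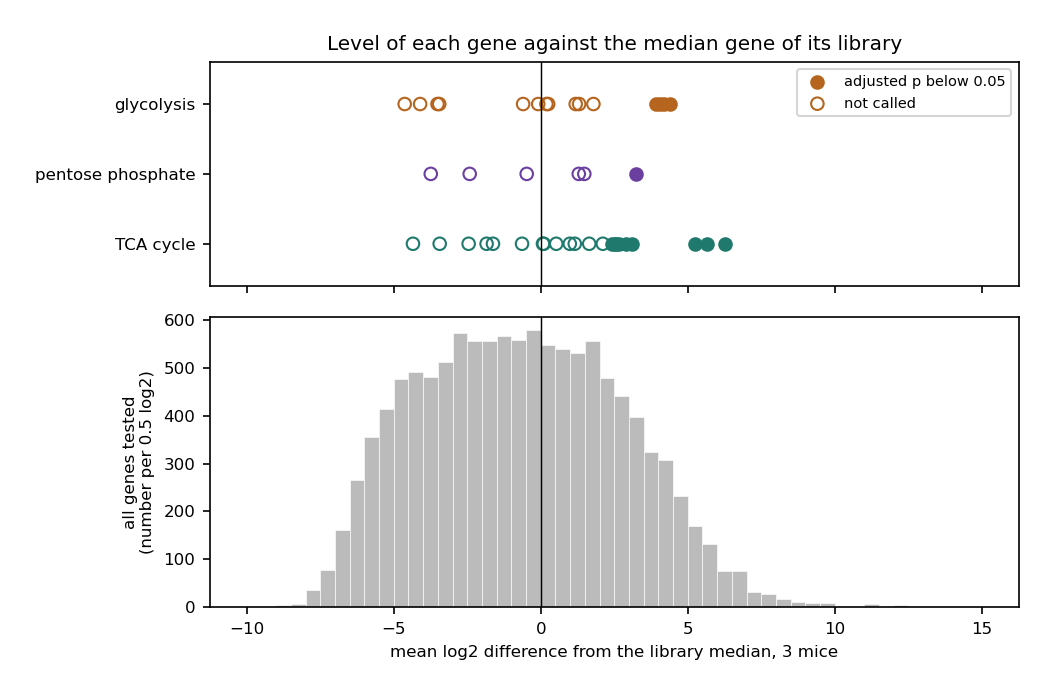
Mean log2 difference of each tested enzyme from the median gene of its library (upper panel, filled circles have an adjusted p below 0.05 by limma) above the same value for all 11603 genes tested (lower panel, genes per 0.5 log2 units). The 14 called enzymes lie between 2.42 and 6.27 log2 units, in the upper part of the distribution of all genes.

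Hexokinases phosphorylate glucose and commit it to the cell. Hk2, the inducible form, had 1732, 648 and 1185 normalised reads in mice 1, 2 and 3. Hk1, found in most tissues, had 121, 1.11 and 251. Hk3, a form of myeloid cells, had 33.9, 16.1 and 28.9. Per kb, Hk2 was the highest of the 3 in every mouse. Ratios between genes are of normalised reads plus 1, per kb, unless stated. Hk2 stood at 20.3 times Hk1 in mouse 1 and 6.73 times in mouse 3. In mouse 2 Hk1 had 2 reads, under the floor of 3, and without the added 1 the ratio was 835 with an exact 95% interval of 231 to 6901, for counting error only. Limma over all genes set against Hk1 did not call the ratio (log2 ratio 5.29 ± 2.91 SE, adjusted p = 0.221). Against Hk1, 15.0% of genes were called higher and 0.00% lower. Without mouse 2, where Hk1 nearly vanished, the ratio was smaller and was called (log2 ratio 3.55, adjusted p = 0.0423, limma). The ratio of Hk3 to Hk2 was steadier, at 0.0326, 0.0427 and 0.0408 per kb, and was not called either (log2 ratio -4.70 ± 2.93 SE, adjusted p = 0.247, limma). This SE is the spread that the trend over all genes gave and not that of these 3 ratios. With limma run without a trend the ratio was not called either (adjusted p = 0.0989). Against Hk2, 5.40% of genes were called lower and 15.8% higher. Hk3 showed no constant order with Hk1. It was at 0.662 and 0.275 times its level in mice 1 and 3, and in mouse 2, against 2 reads and without the added 1, at 33.6 times (exact 95% interval 8.50 to 291). This was not called (log2 ratio 0.59 ± 3.98 SE, adjusted p = 0.983, limma). Gpi1, which isomerises glucose 6-phosphate, had 952, 2378 and 949 normalised reads.

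Phosphofructokinase is the main control point of glycolysis. The platelet form Pfkp had 24.2, 418 and 90.9 normalised reads, the liver form Pfkl 1.61, 40.5 and 95.1, and the muscle form Pfkm 3.23, 0 and 0.705. Against the library median Pfkp was at -3.45 and Pfkl at -4.63 log2 units, and neither was called (adjusted p = 0.353 and 0.206, limma). The forms did not keep their order across mice. Pfkl had 2 reads in mouse 1, where Pfkp was at 7.47 times its level per kb without the added 1 (exact 95% interval 1.90 to 64.5). In mice 2 and 3 Pfkp was at 5.03 and 0.476 times Pfkl (log2 ratio 1.17 ± 2.63 SE, adjusted p = 0.808, limma), where 36.9% of genes were called above Pfkl and 0.00% below. For Pfkm all values lay near the floor of 3 reads, which is 2.42, 1.66 and 2.11 normalised reads in mice 1, 2 and 3. Per kb, the enzymes of the next steps averaged 1405 for Aldoa and 1916 for Tpi1, against 13.3 for Pfkp. Aldolase A, Aldoa, which splits fructose 1,6-bisphosphate, had 5223, 4323 and 2721 normalised reads, and Tpi1, which interconverts the triose products, had 3217, 3507 and 9102. Aldoa lay 4.07 ± 0.57 and Tpi1 4.39 ± 0.54 log2 units (SE) above the library median, with adjusted p of 1.31e-11 and 3.92e-15 by limma.

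The enzymes from glyceraldehyde 3-phosphate to pyruvate were lower than Aldoa and Tpi1 per kb. Gapdh had 1485, 699 and 1489 normalised reads, or 359, 169 and 360.2 per kb, against 1169, 1274 and 3306 per kb for Tpi1. Pgk1, the first ATP-yielding kinase of the pathway, had 87.9, 221 and 252, and Pgam1, a mutase, 255, 106 and 224. Eno1, the enolase, differed most, at 2968, 162 and 47.9, so its mean rests on mouse 1. Pkm, the pyruvate kinase gene, had 177, 1190.4 and 526. None of these 5 was called above or below the library median. Some of them have near-identical copies elsewhere in the genome that can take or void reads. In the GENCODE M21 annotation, 71 other genes matched the Gapdh transcript at 95% identity over 50% or more of its length, 68 of them pseudogenes. There were 3 such matches for Eno1, 2 each for Pgk1 and Ldha, and 1 each for Gpi1, Ldhb, Pdhb and Pkm. The other 37 members had none, Tpi1 and Aldoa among them. How the authors' counting treated such reads is not given in the sources used here, so the value of Gapdh is uncertain and the part of such copies in it was not tested.

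Lactate dehydrogenase was high in both forms. Ldha, the form that favours lactate production, had 7118, 2858 and 3253 normalised reads, and Ldhb, the form typical of oxidative tissues, had 3973, 4140 and 787 in mice 1, 2 and 3. Each lay above the library median, by 3.92 ± 0.59 log2 units for Ldha and 4.21 ± 0.56 for Ldhb (SE, adjusted p = 3.01e-10 and 4.90e-13, limma). Per kb, Ldhb was at 1.177, 3.05 and 0.510 times Ldha, so neither form was the higher in all mice (log2 ratio 0.29 ± 0.61 SE, adjusted p = 0.654, limma). Of all genes 4.96% were called above Ldha and 77.2% below it. The sign of this ratio turned without mouse 2 (log2 ratio -0.37) and when levels were not divided by length (log2 ratio -0.78).

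Ldha is a textbook target of the hypoxia-inducible factor HIF, whose sites often contain ACGTG. Other forms of the site were not sought. The 250 bases before the annotated start are shown for Ldha and Pgk1, both known HIF targets at very different levels here, and for Mdh1, the member with the highest mean. They are RefSeq windows on GRCm38.p6, a later build than the mm9 of the counts, printed 5′ to 3′ on the gene's strand with ACGTG or its reverse complement CACGT in capitals. The windows are chr7:46845554-46845803 on the plus strand for Ldha, chrX:106186850-106187099 on the plus strand for Pgk1 and chr11:21571935-21572184 on the minus strand for Mdh1. Bases just after the annotated start, which are not shown, were found in a GENCODE M21 transcript for 35 of the 43 members with a window, Pgk1 and Mdh1 among them but not Ldha.
Ldha: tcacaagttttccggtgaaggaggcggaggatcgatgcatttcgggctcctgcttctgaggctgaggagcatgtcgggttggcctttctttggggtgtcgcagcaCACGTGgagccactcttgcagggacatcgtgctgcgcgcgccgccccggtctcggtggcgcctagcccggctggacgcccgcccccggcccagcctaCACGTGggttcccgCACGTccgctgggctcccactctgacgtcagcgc
Pgk1: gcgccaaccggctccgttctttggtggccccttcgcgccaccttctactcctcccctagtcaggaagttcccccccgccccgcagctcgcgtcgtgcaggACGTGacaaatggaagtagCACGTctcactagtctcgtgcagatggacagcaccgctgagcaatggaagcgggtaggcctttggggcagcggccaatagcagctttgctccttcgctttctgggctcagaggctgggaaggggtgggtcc
Mdh1: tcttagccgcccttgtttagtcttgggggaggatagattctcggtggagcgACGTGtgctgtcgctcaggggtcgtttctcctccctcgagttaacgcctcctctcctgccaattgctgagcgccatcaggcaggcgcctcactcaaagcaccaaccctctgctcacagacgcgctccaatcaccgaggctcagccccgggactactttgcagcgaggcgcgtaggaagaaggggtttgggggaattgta

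The Ldha window held 2 full CACGTG words, each of which is read as ACGTG on both strands, and 5 matches in all. The Pgk1 window held 2 matches and the Mdh1 window 1. Among the 43 members with a window, 11 held ACGTG on either strand, or 25.6%, against 22.2% of 8040 tested genes with a window and 16.6% of all 27025 promoter windows. By role these were 6 of 16 glycolysis genes, none of 7 pentose phosphate genes and 5 of 20 TCA cycle genes. The CCAAT word stood on either strand in 39.5% of the members, against 36.4% of the tested genes and 34.5% of all windows. CACGTG stood in 4.65% of the members, in 8.86% of the tested genes and in 6.05% of all windows. Median GC content was 60.4% in the members' windows and 59.6% in those of the tested genes. These are matches of letters in short windows, and no binding was measured.

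The 6 tested pentose phosphate genes spanned 7.28-fold to 95.4-fold between mice (normalised reads plus 1). G6pdx, the X-linked gate enzyme that makes the first NADPH, had 3923, 135 and 629 normalised reads, and Pgd, which makes the second, had 22.6, 342 and 6.34. Mouse 2 was lowest for G6pdx and highest for Pgd, so per kb Pgd was at 0.00287, 1.20 and 0.00557 times G6pdx (log2 ratio -5.22 ± 3.32 SE, adjusted p = 0.374, limma). Without mouse 2 it was not called either (log2 ratio -7.97, adjusted p = 0.0937, limma). Against G6pdx, 0.0172% of genes were called lower and 0.776% higher. Pgls, the lactonase between them, had 1305, 587 and 12.7. Rpe, the epimerase of ribulose 5-phosphate, had 37.1, 1849.8 and 3335, and Rpia, the isomerase that makes ribose 5-phosphate, was at 0 in every mouse. Against a floor of 3 reads per library, Rpe was at least 26.4-fold higher than Rpia per kb in mouse 1, 1913-fold in mouse 2 and 2715-fold in mouse 3.

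In the branch that returns carbon to glycolysis, Taldo1, the transaldolase, had 3040.4, 448 and 3269 normalised reads, and Tkt, the transketolase, 64.5, 503 and 40.9. Taldo1 lay 3.23 ± 0.68 log2 units (SE) above the library median (adjusted p = 1.31e-05, limma). Per kb it exceeded Tkt in 3 of 3 mice, by 157-fold, 3.02-fold and 265-fold (log2 ratio 5.65 ± 1.72 SE, adjusted p = 0.00705, limma over all genes set against Tkt, where 22.6% of genes were called higher and 1.75% lower). The 2 mice with a wide gap were mice 1 and 3, and limma no longer called the ratio once mouse 1 (log2 ratio 4.82, adjusted p = 0.652) or mouse 3 (log2 ratio 4.45, adjusted p = 0.463) was left out. Without mouse 2 it was larger (log2 ratio 7.67, adjusted p = 1.93e-30, limma). It was not called either without division by length (log2 ratio 3.89, adjusted p = 0.107, limma).

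The pyruvate dehydrogenase complex links glycolysis to the TCA cycle. Pdha1, the X-linked alpha subunit of its first component, had 3741, 2071 and 26.8 normalised reads. Pdhb, the beta partner, had 4759.8, 1144 and 2253, and only Pdhb was called above the library median (2.89 ± 0.73 log2 units SE, adjusted p = 0.000439, limma). Dlat, the acetyltransferase core, had 423, 615 and 62.0. Dld, the dehydrogenase shared with other 2-oxoacid complexes, had 4446, 5608 and 161, and was called above the median (2.42 ± 0.81 log2 units SE, adjusted p = 0.0124, limma). It missed the threshold without mouse 1 (1.60 log2 units, adjusted p = 0.320, limma) or mouse 2 (1.63 log2 units, adjusted p = 0.519, limma). It also missed it with only genes above 0 in every library tested (1.94 log2 units, adjusted p = 0.238, limma). The call was lost too with scaling by total listed reads, which also gave the added 1 more weight (2.25 log2 units, adjusted p = 0.0697, limma). Mouse 3 was the lowest for Pdha1, Dlat and Dld but not for Pdhb, and the ratio of Pdhb to Pdha1 per kb was 1.23 and 0.534 in mice 1 and 2 and 78.5 in mouse 3 (log2 ratio 1.90 ± 2.90 SE, adjusted p = 0.779, limma). No gene was called above or below Pdha1 (0.00% each way). Per kb, Dld exceeded Pdha1 in 3 of 3 mice, by 1.20-fold, 2.74-fold and 5.90-fold (log2 ratio 1.43 ± 2.89 SE, adjusted p = 0.843, limma). Dlat was at 0.0865, 0.227 and 1.73 times Pdha1 (log2 ratio -1.62 ± 2.81 SE, adjusted p = 0.810, limma). Without mouse 3 the ratio of Pdhb to Pdha1 changed sign (log2 ratio -0.30), and the Pdha1 level was called (3.15 log2 units above the median, adjusted p = 0.00105, limma).

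Of the enzymes that enter the cycle, Cs, the citrate synthase, had 9.68, 1133 and 5.64 normalised reads and was over 100-fold higher in mouse 2 than in either other mouse. Of the 3 subunits of the NAD-dependent isocitrate dehydrogenase, which is regulated by ADP and NADH, Idh3b and Idh3g were called above the library median and Idh3a was not. Idh3b had 21640.0, 6397 and 8372. Idh3g had 10633, 10510.3 and 11821, within 1.12-fold across mice. Idh3a, the catalytic subunit, had 431, 1686 and 7667. Idh3g lay 5.65 ± 0.43 and Idh3b 5.25 ± 0.46 log2 units (SE) above the library median (adjusted p = 3.16e-38 and 8.81e-29, limma), and Idh3a 2.11 ± 0.86 without passing (adjusted p = 0.0527, limma). Without mouse 1 Idh3a was called (3.06 log2 units, adjusted p = 0.000240, limma). Per kb, Idh3g exceeded Idh3a by 46.3-fold, 11.7-fold and 2.90-fold and Idh3b exceeded it by 74.3-fold, 5.62-fold and 1.62-fold, in 3 of 3 mice for each. Neither ratio was called (log2 ratio 3.54 ± 1.60 SE with adjusted p = 0.117, and 3.13 ± 1.59 SE with adjusted p = 0.157, limma), and 0.793% of all genes were called above Idh3a and 1.57% below.

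The next complex, oxoglutarate dehydrogenase, was uneven. Its first component Ogdh had 2511, 2405 and 2706 normalised reads, within 1.12-fold across mice and 2.52 ± 0.79 log2 units (SE) above the library median (adjusted p = 0.00661, limma). The succinyltransferase core Dlst had 24.2, 188 and 10.6. Dlst was below Ogdh in 3 of 3 mice, at 0.00572, 0.0447 and 0.00244 times its level per kb, which limma did not call (log2 ratio -6.87 ± 2.62 SE, adjusted p = 0.0592). With mouse 2 left out it was called (log2 ratio -8.06, adjusted p = 0.00996, limma). Against Ogdh, 12.9% of genes were called lower and 10.3% higher.

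Succinyl-CoA ligase, which makes ATP or GTP directly, was higher in mouse 2 for all of its genes. The shared alpha subunit Suclg1 had 212, 4000.3 and 182 normalised reads and the ADP-specific beta subunit Sucla2 had 155, 2027 and 123. The GDP-specific beta subunit Suclg2 had 1024, 2067 and 760.5, a narrower range. Per kb Suclg2 was at 5.67, 0.880 and 5.28 times Sucla2, so mouse 2 differed in the direction of this ratio too (log2 ratio 1.57 ± 2.09 SE, adjusted p = 0.666, limma), and 4.89% of genes were called above Sucla2 and 10.8% below. Without mouse 2 the log2 ratio was 2.45 (adjusted p = 0.149, limma). Fumarase, Fh1, had 7.26, 1391 and 38.1.

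Malate dehydrogenase closes the cycle, and Mdh1 had the highest mean of all members. Per kb it had 6372, 10199 and 3772 in mice 1, 2 and 3, close to 6324 for Idh3b in mouse 1 and below 4377 for Idh3g in mouse 3. Mdh1, the cytosolic form of the malate-aspartate shuttle, had 16357, 26180.2 and 9682 normalised reads, 6.27 ± 0.38 log2 units (SE) above the library median and above 97.97% of the genes tested per kb (adjusted p = 8.30e-58, limma). Mdh2, the mitochondrial form, had 4244, 2609.5 and 1417, 3.12 ± 0.69 log2 units (SE) above the median (adjusted p = 4.50e-05, limma). Per kb, Mdh2 was below Mdh1 in 3 of 3 mice, at 0.187, 0.0719 and 0.106 times its level (log2 ratio -3.15 ± 0.93 SE, adjusted p = 0.000769, limma). Against a gene as high as Mdh1, 94.1% of all genes were called lower and 0.836% higher. The call held without each mouse in turn and was lost when limma was run without a trend (adjusted p = 0.0505).

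Several side enzymes share substrates with the cycle. Idh1 and Idh2, the cytosolic and mitochondrial isocitrate dehydrogenases that make NADPH, had 235, 2716 and 4425 and 371, 3422 and 78.9 normalised reads. Idh1 was lowest in mouse 1 and Idh2 in mouse 3. Idh1 was called above the library median (2.66 ± 0.76 log2 units SE, adjusted p = 0.00266, limma), but not without mouse 2 (2.31 log2 units, adjusted p = 0.216, limma) or mouse 3 (1.79 log2 units, adjusted p = 0.298, limma). Nor was it called without division by length (2.23 log2 units, adjusted p = 0.0525, limma) or with only genes above 0 in every library tested (2.19 log2 units, adjusted p = 0.128, limma). Per kb Idh2 was at 1.68, 1.35 and 0.0193 times Idh1 (log2 ratio -1.50 ± 1.94 SE, adjusted p = 0.564, limma), where 19.5% of genes were called below Idh1 and 0.862% above. Without mouse 1 it was called below Idh1 (log2 ratio -2.63, adjusted p = 0.0463, limma), and without mouse 3 the sign turned (log2 ratio 0.59).

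Aco1, the cytosolic aconitase that also serves as an iron regulatory protein, had 20.2, 1361 and 2069 normalised reads. The malic enzymes, which turn malate into pyruvate, had 131, 819 and 8.46 for the cytosolic Me1 and 154, 17.8 and 422 for the mitochondrial Me2, with opposite orders across mice. Per kb, Me2 was at 0.621, 0.0121 and 23.7 times Me1 (log2 ratio -0.83 ± 2.59 SE, adjusted p = 0.893, limma), and 0.0603% of genes were called below Me1 and 1.03% above. Acly, which splits citrate in the cytosol to acetyl-CoA for lipid synthesis, had 3292, 3252 and 1530.1 and lay 2.57 ± 0.78 log2 units (SE) above the library median (adjusted p = 0.00484, limma). Without mouse 2 the same difference missed the threshold (2.52 log2 units, adjusted p = 0.0504, limma). Cs was below Acly in 3 of 3 mice, at 0.00296, 0.318 and 0.00396 times its level per kb, which limma did not call (log2 ratio -6.01 ± 2.62 SE, adjusted p = 0.0661). Against Acly, 19.8% of genes were called lower and 8.15% higher. The ratio was called without mouse 2 (log2 ratio -8.19, adjusted p = 0.00252, limma).

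**Figure D3:**
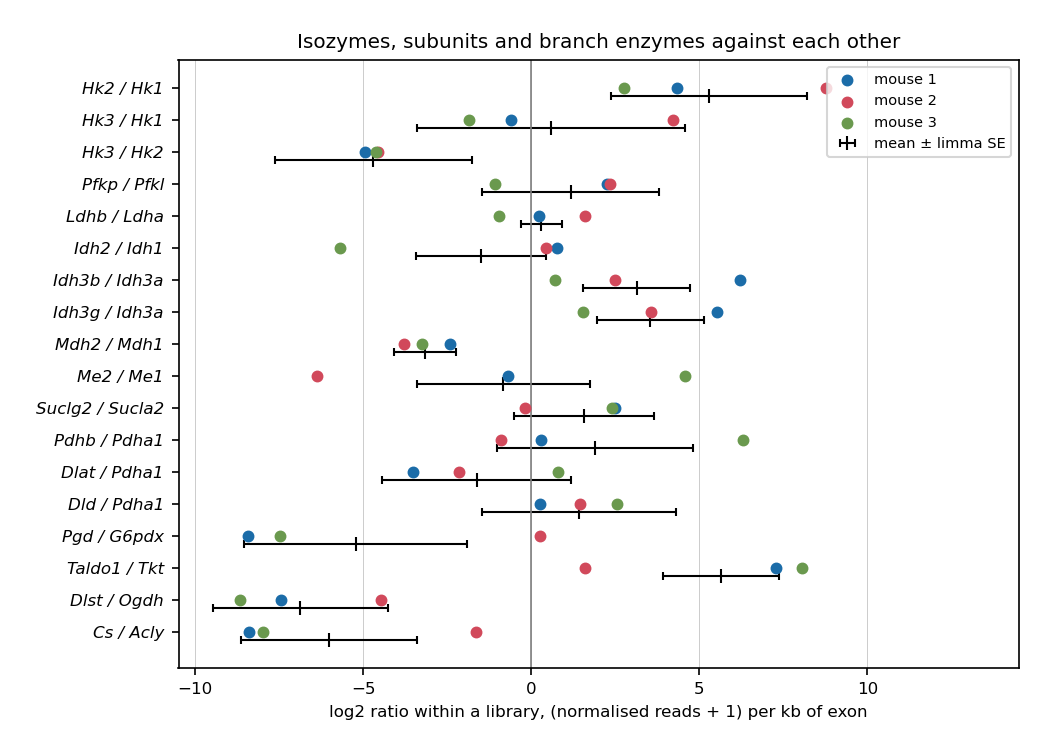
Within-library log2 ratios per kb of exon for the 18 enzyme pairs that could be fitted, of normalised reads plus 1, with a point per mouse and the mean ± limma SE in black. Mdh2 / Mdh1 and Taldo1 / Tkt passed the test, and 9 of the 18 pairs kept 1 direction in every mouse.

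In all, 21 pairs of isozymes, subunits or branch enzymes had been chosen and 18 could be fitted. Mdh2 to Mdh1 and Taldo1 to Tkt were called, and the other 16 were not. A missed threshold does not show equal levels, since the SE of these ratios reached 3.98 log2 units, for Hk3 to Hk1. That SE, like those of both called pairs, was set by the trend over all genes and not by a pair's own 3 ratios. An exact sign-flip test on 3 mice cannot give a p below 0.25, two-sided.

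The enzymes differed widely between mice. Of the 43 tested, 27 had a highest mouse over 4-fold above the lowest (normalised reads plus 1), against 73.4% of all genes tested, and the median span was 12.04-fold, against 29.2-fold over all genes. By role, 6 of 15 glycolysis genes, 6 of 6 pentose phosphate genes and 15 of 22 TCA cycle genes passed 4-fold. The median span was 2.83-fold in glycolysis, 36.6-fold in the pentose phosphate pathway and 17.02-fold in the TCA cycle. At higher levels the spread was narrower: 13 of the 26 members at a mean of 1000 or more passed 4-fold, against 51.9% of all genes at that level. In every mouse 10 of the 43 reached 1000, against 18.8% of all genes tested. They were Aldoa, Tpi1, Ldha, Pdhb, Idh3b, Idh3g, Ogdh, Mdh1, Mdh2 and Acly.

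Mouse 2 was highest for 11 of 22 TCA cycle genes and 4 of 15 glycolysis genes, against 34.0% of all genes tested, and mouse 3 was lowest for 13 of the 22, against 34.9%. Mouse 1 was highest for 5 of the 22 and 6 of the 15, against 33.9%, and mouse 3 for 6 and 5, against 32.1%. The median deviation of TCA cycle genes from their mean over mice was -0.03, 1.11 and -0.78 log2 units in mice 1, 2 and 3, against -0.10, 0.17 and -0.12 over all genes. For glycolysis genes it was 0.40, -0.42 and 0.13. Proximal tubule markers, mostly Kap, took 0.122%, 0.713% and 0.0521% of the reads in mice 1, 2 and 3. The order of mouse 2 above mouse 1 above mouse 3, chosen after the values were seen, was that of 9 of the 12 tubule markers, 10 of 22 TCA cycle genes, 2 of 15 glycolysis genes, 2 of 6 pentose phosphate genes and 17.2% of all genes tested. The 10 were Dlat, Dld, Dlst, Cs, Idh2, Sucla2, Suclg1, Suclg2, Mdh1 and Me1. The part of tubule RNA in these values was not tested. Mouse 2 also had the fewest listed genes at 0, with 2792, 1958 and 2928 in mice 1, 2 and 3. The part of this difference between libraries was not tested either. Without mouse 2, 11 members were called above the library median, against 21.7% of all genes tested. Of the members only Cs was called below it (-5.67 log2 units, adjusted p = 0.0250, limma), against 13.6% of all genes.

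**Figure D4:**
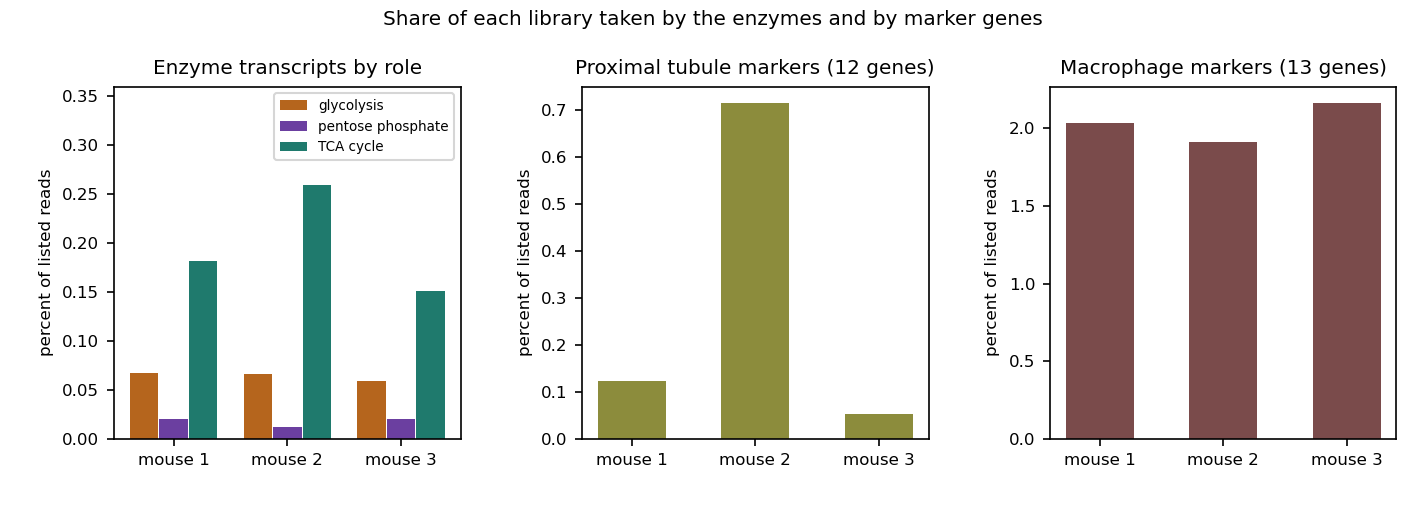
Percent of listed reads taken in each mouse by the enzymes of each role (left), by 12 proximal tubule markers (middle, mostly Kap) and by 13 macrophage markers (right). Mouse 2 has the highest share of TCA cycle genes, 0.259%, and of tubule markers, 0.713%, while the macrophage markers lie between 1.91% and 2.16%.

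Further genes around these pathways were taken from 4 fixed lists and read against the same 22.7% called above and 4.32% called below over all genes. Of 11 sugar and lactate transport genes, 9 were listed, 6 were tested, and 2 were called above. Bsg, the chaperone of lactate transporters, had 3700.1, 6928 and 8153 normalised reads and Mpc1, a subunit of the mitochondrial pyruvate carrier, 2490, 3833 and 2573, and both were called. Its partner Mpc2 had 1157, 3589 and 2699. The glucose transporter genes Slc2a1 and Slc2a3 had 0.806, 5.55 and 0 and 20.97, 517 and 59.9, and Slc2a6 was at 0 in every mouse. Of 20 regulators of flux, 19 were listed and tested and 2 were called above, Hif1a with 3290, 3094 and 10515.0 and Myc with 701, 3346 and 1165. Mlxip, a glucose-responsive transcription factor gene, had 9997, 402 and 5927, and Pdk3, a kinase that inhibits pyruvate dehydrogenase, 4366, 4563 and 19.0.

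Enzymes known from kidney, liver or other specialised tissues were also present. Of 21 tissue-restricted and gluconeogenic genes, 11 were listed and 10 tested, with 4 called above and 1, Tktl2, below (0, 0.555 and 52.2 normalised reads, adjusted p = 0.0167, limma), and Eno3 was at 0 in every mouse. Pck1 and G6pc, which catalyse the first and the last step particular to gluconeogenesis, had 1606, 13420.0 and 569 and 473, 3698 and 699 normalised reads. Fbp1, the gluconeogenic bisphosphatase, had 4866, 4691 and 245. Pck1 and Fbp1 are also among the 12 tubule markers. The summed level of this list was 14858, 46896 and 3735 in mice 1, 2 and 3, the same order of mice as the summed tubule markers.

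Among 19 other enzymes and carriers of the cycle, 17 were listed, 16 were tested and 7 were called above. Sdhb and Sdhd, subunits of succinate dehydrogenase, had 14975, 15219 and 6492 and 1286, 9811 and 8912 normalised reads. Both were called, as were Sdha, Sdhc, Glud1 and Slc25a11.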

How the data were processed

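Macrophages sorted from kidneys of 3 mice gave 1 library each, made with SMART-seq v4 and, from 10 ng of cDNA, 8 PCR cycles, per the labels' protocols. The deposited values are a signal: gene counts that the authors made with HTSeq 0.5.4 and scaled with DESeq 1.18.0 on mm9, per the submitters' processing notes. Each deposited value contains an added 1, which was subtracted. The remainder was a whole multiple of a step per library for 100% of values (tolerance 0.05 of a step), which gave the reads. Reads carry no molecular identifiers, so floors of 3 reads cover counting error only. The sources used here name no aligner, annotation or row filter. No count test was run.

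Exon lengths from GENCODE M21 matched 99.6% of genes by identifier. On log2((value + 1)/kb), limma 3.58.1 in R 4.3.3 (intercept only, trend, Benjamini-Hochberg) tested genes at a mean of 10 or more against the library median and against each pair's denominator gene. Calls needed an adjusted p below 0.05. P-values reach no further than these 3 mice. In the level test as reported they rest on the spread that the trend over all genes gives at a gene's level. A gene's own 3 values did not set its spread there. In the ratio fits as reported the trend set the spread in the same way for every fitted pair but Dlst to Ogdh. Aldoc was not listed, Rpia was at 0 and Pfkm was under the filter, so their pairs had no fit. Named genes were all members, and of each other list the 3 highest means and those at 0 in every mouse, besides others named after their values were seen, among them Slc2a1, Slc2a3, G6pc, Tktl2 and other called genes; some genes under this rule are not reported here. Copies were sought with megablast, motifs in the first RefSeq window of each gene. Members and lists were chosen with earlier results of these data known. The fits were tested on simulated data in which every gene's spread followed a trend with level. That test cannot show whether the real genes follow the trend. Alternatives were other pseudocounts, filters and scaling (by total listed reads, with the added 1 kept), no length, no trend and each mouse left out. Python 3.11.15, numpy 2.4.6, pandas 2.3.3, scipy 1.17.1 and matplotlib 3.10.9 did the rest.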

Additional observations from a re-analysis of the deposited data

How the results depend on the processing

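Of the 14 levels and 2 pairs called, limma without a trend kept 1 (Taldo1 to Tkt), with 0 members called above the library median. Under the other alternatives 11 to 17 members were called above, against 20.1% to 23.5% of all genes tested. Members called below numbered 2 with a pseudocount of 10, 1 with every gene above 0 in at least 1 library tested, 6 with scaling by total listed reads, and 0 to 1 when a mouse was left out. Of all genes tested, 10.7%, 17.3% and 13.2% were called below in these settings in turn, and 5.86% to 13.6% with a mouse left out. Pairs called numbered 4 with a pseudocount of 10, 4 with every gene above 0 in at least 1 library tested, 4 with only genes above 0 in every library tested, 6 with scaling by total listed reads, and 1 to 5 when a mouse was left out. In the setting scaled by total listed reads, 1 was still added to values that had become smaller. It thus also raised the weight of the added 1, for levels and pairs alike. Scaling alone leaves a ratio within a library unchanged. The log2 ratio of Hk2 to Hk1 was 3.82 there, against 5.29 as reported and 4.45 with a pseudocount of 10. Not every ratio shrank, and Me2 to Me1 went from -0.83 to -1.10. The cause of the changed numbers under the other settings was not tested. The members' share of reads was 0.188% per kb of exon, and 0.250% to 0.303% when a mouse was left out. Sign changes were limited to members and pairs that were not called. With every gene above 0 in at least 1 library tested, which lowers the library median, the level turned to 1.15 for Pgk1, 0.64 for Eno1, 0.76 for Pgls and 0.60 for Dlat (log2 units). With only genes above 0 in every library tested it was -0.28 for Pgam1, -0.22 for Pkm, -0.37 for Aco1 and -0.40 for Sucla2. Without division by length it was -0.72 for Pgam1, and the log2 ratio was -0.62 for Hk3 to Hk1, -0.78 for Ldhb to Ldha and 0.087 for Me2 to Me1. When a mouse was left out, the level spanned zero for 12 members: from -0.42 to 0.31 for Pgk1, -0.12 to 0.71 for Pgam1, -2.36 to 0.62 for Eno1, -0.28 to 0.90 for Pkm, -1.84 to 1.47 for Pgls, -0.40 to 3.15 for Pdha1, -1.15 to 0.32 for Dlat, -1.15 to 2.13 for Aco1, -0.16 to 2.38 for Idh2, -1.09 to 0.75 for Sucla2, -0.80 to 1.25 for Suclg1 and -3.01 to 0.030 for Me1. The log2 ratio did so for 5 pairs: from -1.23 to 1.82 for Hk3 to Hk1, -0.37 to 0.92 for Ldhb to Ldha, -2.63 to 0.59 for Idh2 to Idh1, -3.53 to 1.94 for Me2 to Me1 and -0.30 to 3.30 for Pdhb to Pdha1. No paired analysis was possible because there was a single group. All 14 called members lay above the floor of 3 reads in every mouse, while Rpia in every mouse, Pfkm in mice 2 and 3, Hk1 in mouse 2 and Pfkl in mouse 1 lay under it.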
